A study of Mus musculus with 21 samples.

Results

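The genes of fatty acid oxidation and of its control by peroxisome proliferator-activated receptors (PPARs) were followed on 21 expression arrays of mouse heart. They are 39 genes taken by name: genes of fatty acid uptake and activation, the carnitine shuttle, malonyl-CoA, mitochondrial β-oxidation and electron transfer, acyl-CoA thioesterases, uncoupling proteins and a pyruvate dehydrogenase kinase, triglyceride turnover, and the nuclear receptors and coactivators that control them. Of the 39, 36 had a probe set that names that gene alone, and all 36 passed the filter on dim probe sets, among 13279 tested genes of 18193 gene symbols. Cpt1b, the muscle form of the outer carnitine palmitoyltransferase, was read only by a probe set that lists several genes and is given no value, and Acsl1 and Ucp2 were not analysed here.

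The study set G4D mice, gene-targeted to make less of the cardiac transcription factor Gata4, against wild-type mice at baseline and under pressure overload. In transverse aortic constriction (TAC) a ligature narrows the aortic arch and loads the left ventricle, and sham mice had the same surgery with the aorta left untouched. There were 6 G4D samples and 6 wild-type samples after TAC, and 5 G4D and 4 wild-type samples after sham surgery. G4D mice are heterozygous for a deletion within Gata4; wild-type mice carry neither this nor any other named allele, and no drug or agent is named for any group. Strain, sex, age, the time from operation to sampling, and any batch or date are not given in the sources used here. The labels name cardiac myocytes as the source without saying whether cells were isolated or whole tissue was used. Nothing says that samples of a group came from separate animals, so p-values measure the spread between these samples, which may be technical.

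The adult heart draws most of its energy from long-chain fatty acids. Fatty acids enter the cell, are activated to acyl-CoA, cross the mitochondrial membranes as carnitine esters and are shortened by repeated cycles of dehydrogenation, hydration, a second dehydrogenation and thiolysis, which feed electrons to the respiratory chain. PPARα, bound to its partner RXR, and the oestrogen-related receptors switch these genes on together with the PGC-1 coactivators, and malonyl-CoA holds fatty acid entry into mitochondria back.

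The nuclear receptors recognise repeats or single copies of the hexamer AGGTCA, and the windows of 3 members are shown because they hold such copies or join a pair of members at 1 start region. Windows of 300 bases, 250 before to 50 after the start of a gene, were taken from RefSeq on build GRCm38.p6; 32 of the 39 members matched, with 39 windows. In Acadm (chr3:153944594-153944893, minus strand) and Ucp3 (chr7:100472741-100473040, plus strand) the hexamer or its reverse complement is in capitals. In Hadha (chr5:30154931-30155230, minus strand) the capitals mark the 228 bases that are also in the window of Hadhb, which starts 273 bases away and is read in the opposite direction.
Acadm: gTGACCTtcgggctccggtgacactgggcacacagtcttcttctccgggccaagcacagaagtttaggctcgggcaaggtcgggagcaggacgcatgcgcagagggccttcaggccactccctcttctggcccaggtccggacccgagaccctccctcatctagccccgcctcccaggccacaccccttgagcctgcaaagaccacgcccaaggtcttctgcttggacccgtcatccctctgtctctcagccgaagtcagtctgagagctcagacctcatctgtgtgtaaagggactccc
Ucp3: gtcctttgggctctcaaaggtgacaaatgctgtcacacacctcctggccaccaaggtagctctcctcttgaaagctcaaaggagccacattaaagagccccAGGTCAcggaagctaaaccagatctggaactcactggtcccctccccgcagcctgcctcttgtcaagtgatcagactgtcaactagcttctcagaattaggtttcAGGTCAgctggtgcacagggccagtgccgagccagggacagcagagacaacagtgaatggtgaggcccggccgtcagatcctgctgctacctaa
Hadha: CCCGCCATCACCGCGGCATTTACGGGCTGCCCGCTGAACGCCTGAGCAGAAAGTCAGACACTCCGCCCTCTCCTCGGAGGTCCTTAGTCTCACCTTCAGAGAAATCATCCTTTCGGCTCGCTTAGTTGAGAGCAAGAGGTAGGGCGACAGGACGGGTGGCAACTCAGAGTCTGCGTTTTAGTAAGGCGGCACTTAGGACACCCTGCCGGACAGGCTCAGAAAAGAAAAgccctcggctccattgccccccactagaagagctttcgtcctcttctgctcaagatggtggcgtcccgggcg
On either strand, AGGTCA was in 17.9% of the 39 member windows (7 windows) and in 16.3% of all 32851 windows of that length, and AAGGTCA, which contains it, was in 7.69% (3 windows) and 4.72%. The direct repeat of this hexamer with a single base between the copies, which contains it at both ends, was in 0 member windows and in 0.0396% of all windows. AGATAA, a form of the motif bound by the family of Gata4, was in 5.13% of the member windows (2, of Acadvl and Pdk4) and in 11.2% of all windows. These counts describe letters in short windows and not binding.

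Levels are log2 probe-set values after quantile normalization between arrays, and a gene's brightest probe set stands for it. All tests are from 1 limma fit of the 21 arrays; calls needed an adjusted p (Benjamini-Hochberg, over all 13279 genes) under 0.05, and a ± value is the standard error of the fold change, on the log2 scale, where SD is not written. Gata4 was at 7.64 to 8.14 (median 7.999) in G4D TAC, 7.43 to 8.15 (median 7.80) in wild-type TAC, 7.90, 7.91, 7.70, 7.93 and 7.83 in G4D sham, and 8.29, 7.93, 8.10 and 8.10 in wild-type sham. The groups overlap, and G4D over wild type gave 0.17 ± 0.10 after TAC (adjusted p = 0.556) and -0.25 ± 0.12 in sham (adjusted p = 0.611); whether the probe set lies in the targeted part is not known, so this checks no label. The deposited array medians ran from 4.31 to 5.33, and each array correlated at 0.969 or more with the mean of its group. All 12 cardiomyocyte markers were above the filter level, and their log2 summed level hardly differed, with medians of 15.99 in G4D TAC, 16.02 in wild-type TAC, 16.03 in G4D sham and 16.01 in wild-type sham. Quantile normalization limits what can be seen in genes this bright. The sum therefore cannot show whether cardiomyocyte RNA was stable. G4D sham sample 5 stood apart: its atrial markers summed to 14.21, against 10.47 to 10.86 in the other 4 G4D sham samples, and its adipocyte markers to 12.63, against 11.84 to 12.08, with Adipoq, Cidec and the atrial marker Sln below the filter level. Of its adipocyte markers Car3 was the highest of the G4D sham samples (10.59, the others 4.20 to 5.42), as were Pck1 (6.14) and Fabp4 (12.17). Lep was the lowest (5.05, the others 5.19 to 5.67), and Retn (6.40) lay within the others (6.11 to 6.61). Without G4D sham sample 5, 24 of the 25 members called for TAC in G4D were still called, Slc25a20 was lost, and Angptl4 was gained in the opposite direction. In bulk RNA, fewer cells of a type and less RNA per cell cannot be told apart.

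Most of these genes were lower after TAC in G4D hearts. Of the 36 tested members 25 fell and 0 rose, so that 69.4% fell, where 9.32% of all tested genes fell and 13.2% rose. The median log2 change of the members was -0.44, beside -0.02 over all genes, and 33 of 36 were below 0. In 14 members every G4D TAC sample was below every G4D sham sample, as were 3.38% of all genes. The falls spanned 9 of 10 β-oxidation genes, 2 of 3 carnitine genes and 3 of 3 electron-transfer genes; Cpt1a and Acadl did not pass. Among genes above the filter level in every sample the largest falls were in Ucp3, the triglyceride enzyme Dgat2, the thiolase Acaa2 and the transporter Slc27a1.

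**Figure D1:**
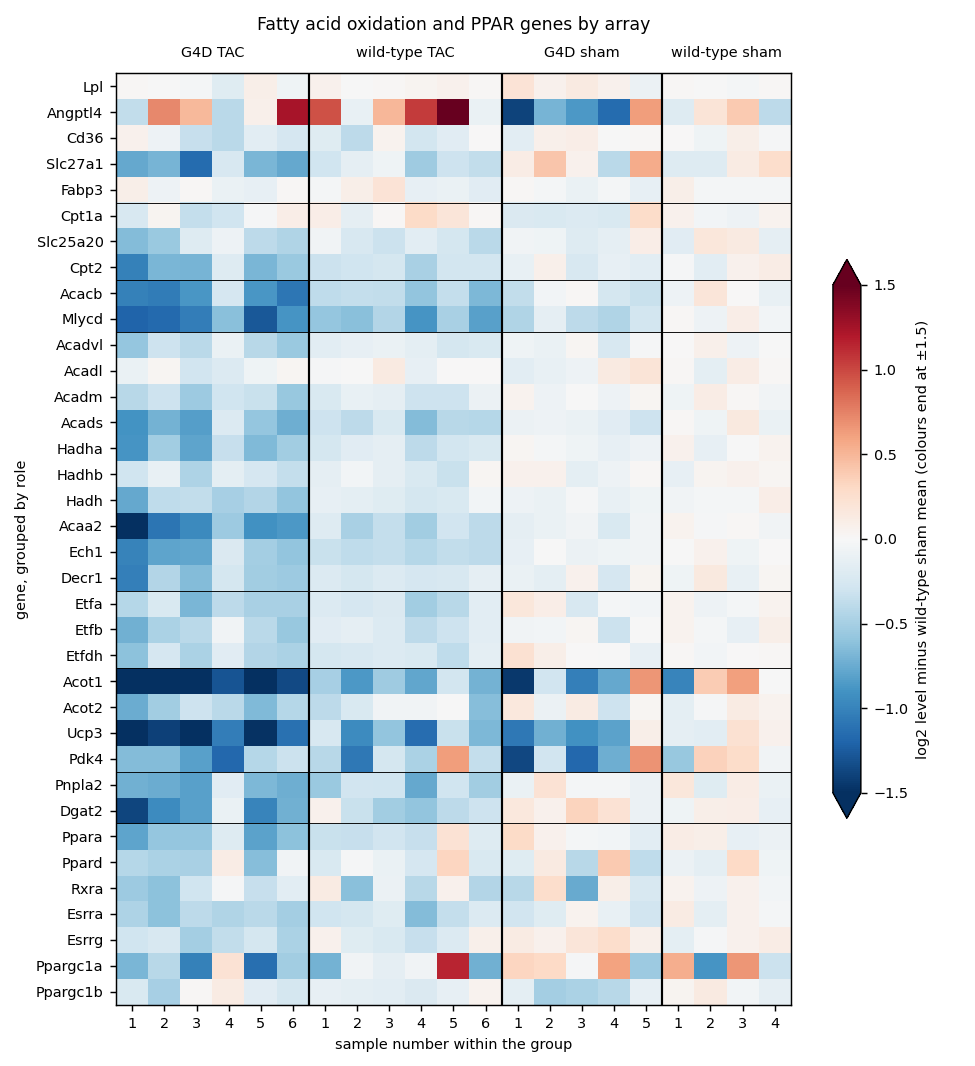
Log2 level of each of the 36 genes (down the page, grouped by role) minus its wild-type sham mean, for each of the 21 samples across, in the order G4D TAC, wild-type TAC, G4D sham and wild-type sham; blue is below and red above that mean, and colours end at ±1.5. Between 32 and 34 of the 36 genes lay below the wild-type sham mean in each G4D TAC sample and between 27 and 35 in each wild-type TAC sample.

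The same operation in wild-type hearts called 6 of the 36 members lower (16.7%) and 0 higher, where 2.16% of all tested genes fell and 5.19% rose. These 6 were Mlycd, Pnpla2, Acacb, Acads, Ech1 and Esrra. The count fell to 1 on leaving out any of wild-type sham samples 1 and 3 and wild-type TAC sample 4, and to 1 (Mlycd) with the replicate number as a block. The members' median was -0.23, beside -0.02 over all genes, and 32 of 36 were below 0; in 16 members every wild-type TAC sample was below every wild-type sham sample, as were 4.12% of all genes. All 6 were also called in G4D hearts, where a further 19 were called, and no member was called in wild-type hearts alone. A gene called in 1 genotype and not in the other is not thereby shown to differ between them; the test of that difference is given further down.

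**Figure D2:**
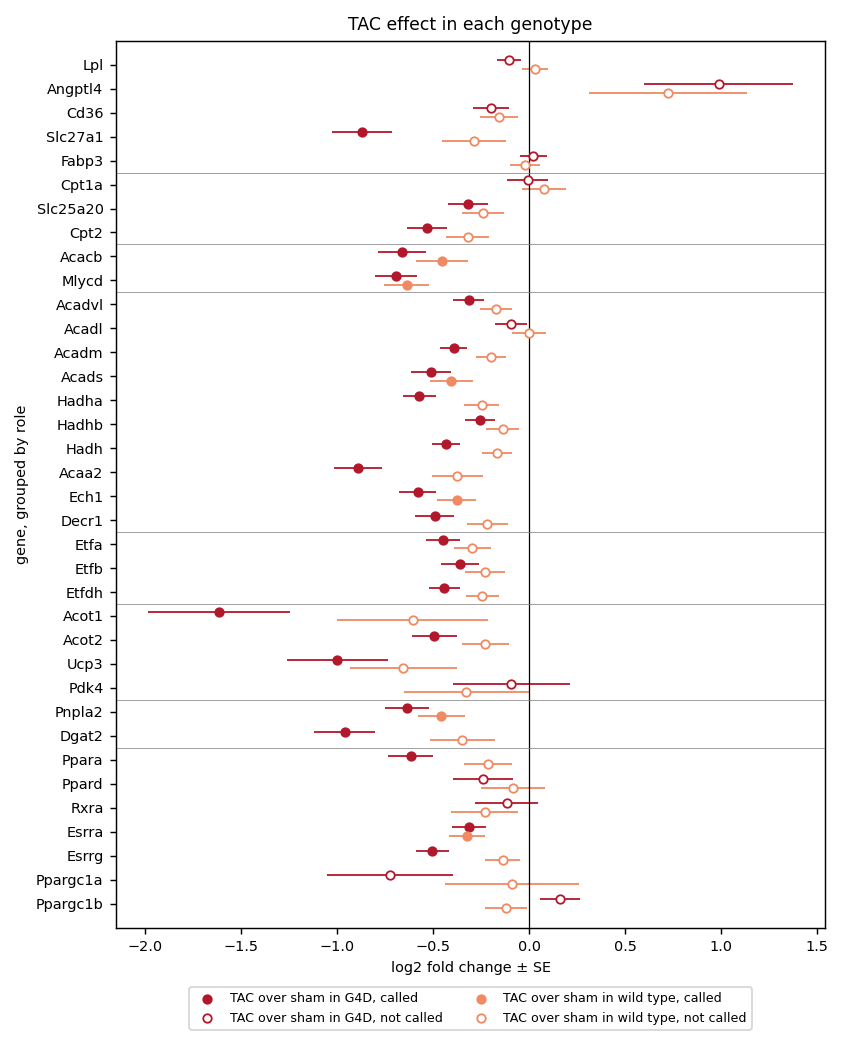
Log2 fold change of TAC over sham (across, with standard error bars) for each of the 36 genes in G4D (dark red) and wild-type (orange) hearts; filled points passed the limma test and open points did not. In G4D 25 genes passed, all below 0; in wild type 6 passed, all below 0.

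The scale of the arrays bears on these counts. In the values as deposited, all genes together were 0.31 higher at the median in G4D TAC than in G4D sham; 2 members then passed the test, Acot1 lower and Angptl4 higher (0.99 with quantile normalization and 1.17 here, limma adjusted p = 0.0203), and the members' median was -0.40 relative to all genes. Most Angptl4 levels in G4D sham were near or below the filter level, as given further down. With each array centred on its median, 5 members passed, all lower: Acaa2, Acot1, Dgat2, Slc27a1 and Ucp3. In wild type 0 members passed under either setting, and the members' median stayed at -0.27 relative to all genes.

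Other features of the samples moved with TAC. Fibroblast markers summed to 13.49 to 14.44 in G4D TAC, 13.26 to 14.14 in wild-type TAC, 12.75 to 13.30 in G4D sham and 12.82 to 12.90 in wild-type sham, with 6 of 9 called higher by TAC in each genotype. Of 7 tested macrophage markers, 7 were called higher by TAC in G4D and 6 in wild type. Of 12 cardiomyocyte markers 2 were called lower in G4D, Tnni3 at -0.21 ± 0.07 (adjusted p = 0.0319) and Pln at -0.20 ± 0.07 (adjusted p = 0.0468), and 0 in wild type. The part of other cell types in the falls was not tested. The 3′-minus-5′ difference of the actin control probe sets, a sign of RNA integrity and labelling, averaged 0.25 ± 0.08 in G4D TAC and 0.46 ± 0.10 in G4D sham, and 0.32 ± 0.11 in wild-type TAC and 0.52 ± 0.10 in wild-type sham (SD), with no overlap between TAC and sham in either genotype. With that difference as a covariate 17 of the 25 calls in G4D held and 0 of the 6 in wild type.

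Fatty acid uptake showed 1 call among 5 tested genes. Slc27a1, which encodes the fatty acid transport protein FATP1, was at 6.64 to 7.55 (median 7.07) in G4D TAC, against 7.91, 8.21, 7.86, 7.40 and 8.35 in G4D sham. Only G4D TAC sample 4 reached the range of the sham samples, and the gene fell by TAC at -0.87 ± 0.16 (adjusted p = 0.000415), while in wild type it stood at -0.29 ± 0.17 (adjusted p = 0.372). Cd36, the main fatty acid translocase of heart muscle, was at -0.20 ± 0.09 in G4D (adjusted p = 0.132) and -0.16 ± 0.10 in wild type (adjusted p = 0.411); with the mean of its probe sets it was called lower in G4D at -0.35 (adjusted p = 0.00352). Lpl, the lipase that frees fatty acids from circulating triglyceride, and Fabp3, the heart fatty acid-binding protein, differed by at most 0.11 in size in either TAC comparison, and quantile normalization limits what can be seen in genes this bright. Lpl was called lower in G4D with cyclic loess (-0.28, adjusted p = 0.0162) and with 75th-percentile centring (-0.33, adjusted p = 0.0244). Angptl4, which inhibits Lpl, was the member farthest above 0, at 0.99 ± 0.39 in G4D (adjusted p = 0.0714) and 0.72 ± 0.41 in wild type (adjusted p = 0.355), with overlapping groups in both. It was called higher in G4D when G4D sham sample 5 (1.32, adjusted p = 0.0129), wild-type TAC sample 5 (adjusted p = 0.0445) or G4D TAC sample 4 (1.12, adjusted p = 0.0449) was left out. In G4D sham Angptl4 was at 3.90, 4.60, 4.43, 4.14 and 5.92, with samples 1 and 4 below the filter level of 4.35. The size of its change is therefore not well determined.

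At the carnitine shuttle, 2 of 3 tested genes fell in G4D. Cpt2, the inner-membrane palmitoyltransferase, was at 9.49 to 10.31 (median 9.82) in G4D TAC, against 10.40, 10.58, 10.26, 10.38 and 10.35 in G4D sham. Its groups overlapped through G4D TAC sample 4, and it fell at -0.53 ± 0.10 (adjusted p = 0.000915). In wild type it was at 10.02 to 10.24 (median 10.21) after TAC, against 10.49, 10.35, 10.56 and 10.61 in sham, which do not overlap, yet it missed the test at -0.32 ± 0.11 (adjusted p = 0.0901). Slc25a20, the carnitine-acylcarnitine carrier, was at 9.19 to 9.76 (median 9.41) in G4D TAC, against 9.79, 9.77, 9.64, 9.70 and 9.93 in G4D sham. It overlapped through G4D TAC samples 3 and 4 and fell at -0.32 ± 0.10 (adjusted p = 0.0293); without G4D sham sample 5 it was at -0.28 and no longer passed (adjusted p = 0.0740). Cpt1a, the liver form of the outer enzyme, was at -0.01 ± 0.11 in G4D and 0.08 ± 0.11 in wild type on its brightest probe set, and at 0.89 and 0.71 in G4D on its 2 dimmer ones.

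Both malonyl-CoA enzymes fell in both genotypes, although they act on malonyl-CoA in opposite directions. Mlycd, the decarboxylase that removes malonyl-CoA, was at 6.95 to 7.60 (median 7.13) in G4D TAC, against 7.78, 8.09, 7.84, 7.78 and 7.95 in G4D sham. In wild type it was at 7.35 to 7.79 (median 7.63) after TAC, against 8.24, 8.16, 8.32 and 8.19 in sham. Every TAC sample was below every sham sample of its genotype, and TAC changed the gene by -0.69 ± 0.11 in G4D (adjusted p = 0.000107) and -0.64 ± 0.12 in wild type (adjusted p = 0.00176). Acacb, the acetyl-CoA carboxylase that makes malonyl-CoA at the mitochondrial surface, was at 8.41 to 9.25 (median 8.55) in G4D TAC, against 9.13, 9.45, 9.52, 9.24 and 9.16 in G4D sham. Of the G4D TAC samples, only sample 4 (9.25) was within the sham range. Acacb changed by -0.66 ± 0.13 in G4D (adjusted p = 0.000663) and by -0.45 ± 0.13 in wild type (adjusted p = 0.0425).

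The acyl-CoA dehydrogenases take the first step of β-oxidation, each on a range of chain lengths. Acadvl, for very long chains, was at 11.12 to 11.60 (median 11.29) in G4D TAC, against 11.63, 11.60, 11.72, 11.45 and 11.69 in G4D sham, an overlap through G4D TAC sample 4, and changed by -0.32 ± 0.08 (adjusted p = 0.00695). Acadm, for medium chains, was at 11.52 to 11.78 (median 11.70) in G4D TAC, against 12.13, 12, 12.07, 12 and 12.11 in G4D sham, with no overlap, and changed by -0.39 ± 0.07 (adjusted p = 0.000436). In wild type both were lower in every TAC sample than in every sham sample, at -0.17 ± 0.09 and -0.20 ± 0.08, and neither passed. Acads, for short chains, was at 8.58 to 9.28 (median 8.76) in G4D TAC, against 9.40, 9.41, 9.39, 9.31 and 9.18 in G4D sham, and at 8.83 to 9.26 (median 9.08) in wild-type TAC, against 9.50, 9.42, 9.63 and 9.39 in wild-type sham. The wild-type groups do not overlap and the G4D groups overlap through G4D TAC sample 4. The change was -0.51 ± 0.10 in G4D (adjusted p = 0.00130) and -0.41 ± 0.11 in wild type (adjusted p = 0.0290). Acadl, for long chains, was the 1 β-oxidation member of 10 that did not pass in G4D, at -0.09 ± 0.08 (adjusted p = 0.447), and stood at 0.00 ± 0.09 in wild type.

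The later steps of the cycle fell in G4D as well. Hadha and Hadhb are the α and β subunits of the trifunctional protein, whose shared start region is printed above. Hadha was at 10.60 to 11.14 (median 10.89) in G4D TAC, against 11.52, 11.45, 11.41, 11.36 and 11.41 in G4D sham, with no overlap, and changed by -0.57 ± 0.08 (adjusted p = 6.49e-05). Hadhb was at 11.74 to 12.09 (median 11.93) in G4D TAC, against 12.27, 12.26, 12.06, 12.12 and 12.22 in G4D sham, and changed by -0.25 ± 0.08 (adjusted p = 0.0240). The Hadhb groups overlapped at their ends; of its dimmer probe sets the brighter gave -0.56, close to Hadha, and the other -0.19. In wild type they stood at -0.25 ± 0.09 and -0.14 ± 0.08, neither past the test. Hadh, the hydroxyacyl-CoA dehydrogenase of shorter chains, was at 11.48 to 11.88 (median 11.77) in G4D TAC, against 12.17, 12.14, 12.22, 12.13 and 12.18 in G4D sham, with no overlap, and changed by -0.43 ± 0.07 (adjusted p = 0.000207). Acaa2, the thiolase that releases acetyl-CoA, was at 9.81 to 10.91 (median 10.52) in G4D TAC, against 11.33, 11.36, 11.40, 11.23 and 11.40 in G4D sham, and at 10.94 to 11.26 (median 11.08) in wild-type TAC, against 11.52, 11.44, 11.47 and 11.40 in wild-type sham. TAC and sham samples did not overlap in either genotype. It fell in G4D at -0.89 ± 0.13 (adjusted p = 3.80e-05), the largest change of the 10 β-oxidation members, and stood at -0.37 ± 0.13 in wild type (adjusted p = 0.104).

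Ech1 and Decr1 prepare unsaturated fatty acids for the cycle. Ech1, the dienoyl-CoA isomerase, was at 11.38 to 12.17 (median 11.70) in G4D TAC, against 12.26, 12.38, 12.29, 12.32 and 12.33 in G4D sham, and at 11.96 to 12.05 (median 12.01) in wild-type TAC, against 12.38, 12.45, 12.32 and 12.39 in wild-type sham. Both pairs of groups were apart, and it fell by TAC at -0.58 ± 0.10 in G4D (adjusted p = 0.000191) and -0.38 ± 0.10 in wild type (adjusted p = 0.0280). Decr1, the dienoyl-CoA reductase, was at 10.22 to 10.98 (median 10.71) in G4D TAC, against 11.14, 11.09, 11.31, 10.99 and 11.28 in G4D sham. These groups were apart by a narrow gap, and the change was -0.49 ± 0.10 in G4D (adjusted p = 0.00132), beside -0.22 ± 0.11 in wild type (adjusted p = 0.270).

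The 3 genes that carry electrons from the acyl-CoA dehydrogenases to ubiquinone all fell in G4D. Etfa and Etfb encode the subunits of the electron-transfer flavoprotein. Etfa was at 10.62 to 11.08 (median 10.85) in G4D TAC, against 11.48, 11.41, 11.07, 11.28 and 11.26 in G4D sham, and changed by -0.45 ± 0.09 (adjusted p = 0.00109). Etfb was at 11.03 to 11.70 (median 11.32) in G4D TAC, against 11.70, 11.72, 11.79, 11.44 and 11.75 in G4D sham, and changed by -0.36 ± 0.10 (adjusted p = 0.0107). Both overlapped at their ends, Etfb through G4D TAC sample 4 and the low G4D sham sample 4. Etfdh, the dehydrogenase that passes the electrons on, was at 10.81 to 11.25 (median 10.96) in G4D TAC, against 11.65, 11.50, 11.43, 11.41 and 11.29 in G4D sham, with no overlap, and changed by -0.44 ± 0.08 (adjusted p = 0.000443). In wild type the 3 stood between -0.30 and -0.23 and did not pass, although in each of them every TAC sample was below every sham sample.

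Acot1, a cytosolic thioesterase that returns acyl-CoA to free fatty acid and a classic PPARα target, was dim in G4D TAC. It was at 2.67 to 4.85 (median 3.88) in G4D TAC, against 4.71, 5.86, 5.12, 5.38 and 6.81 in G4D sham. Of the 6 G4D TAC samples 4 were below the filter level of 4.35, and the groups overlapped only at G4D sham sample 1, the lowest of a wide sham range. It passed the filter through the other groups, so the size of its change is not well determined. The fitted change was -1.61 ± 0.37 (adjusted p = 0.00323), or -1.30 without G4D sham sample 5 (adjusted p = 0.0112). In wild type it was at 5.30 to 5.88 (median 5.53) after TAC, against 5.17, 6.54, 6.76 and 6.14 in sham, an overlap, with a change of -0.61 ± 0.39 (adjusted p = 0.436). Acot2, its mitochondrial relative 21641 bases away on chromosome 12, was at 8.08 to 8.52 (median 8.35) in G4D TAC, against 8.99, 8.73, 8.95, 8.52 and 8.86 in G4D sham, with no overlap, and fell at -0.49 ± 0.12 (adjusted p = 0.00404); the transcripts are so alike that the probe sets may not separate them.

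Ucp3, an uncoupling protein of muscle mitochondria, was at 4.74 to 6.30 (median 5.89) in G4D TAC, against 6.27, 6.62, 6.43, 6.54 and 7.43 in G4D sham. The highest G4D TAC sample just entered the sham range, and Ucp3 fell at -1.0 ± 0.26 (adjusted p = 0.00888), with -0.65 ± 0.28 in wild type (adjusted p = 0.185), where the groups did not overlap. Without G4D sham sample 5 the change in G4D was -0.80 (adjusted p = 0.0303). Pdk4, a kinase that inhibits pyruvate dehydrogenase and another PPAR target, did not pass, at -0.09 ± 0.31 in G4D (adjusted p = 0.862) and -0.33 ± 0.33 in wild type (adjusted p = 0.645). Its 95% interval in G4D, -0.73 to 0.54, holds changes of either sign.

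Both triglyceride genes fell in G4D. Pnpla2, the lipase (ATGL) that starts triglyceride breakdown, was at 9.28 to 9.93 (median 9.37) in G4D TAC, against 10.001, 10.31, 10.07, 10.06 and 10.01 in G4D sham, and at 9.33 to 9.81 (median 9.68) in wild-type TAC, against 10.26, 9.92, 10.21 and 9.995 in wild-type sham. TAC and sham samples were apart in both genotypes, and the change was -0.64 ± 0.12 in G4D (adjusted p = 0.000415) and -0.46 ± 0.12 in wild type (adjusted p = 0.0257). Dgat2, which makes triglyceride, was at 9.25 to 10.52 (median 9.75) in G4D TAC, against 10.79, 10.69, 10.96, 10.84 and 10.54 in G4D sham. The groups did not overlap, with G4D TAC sample 4 closest to sham, and the change was -0.96 ± 0.16 (adjusted p = 0.000174), beside -0.35 ± 0.17 in wild type (adjusted p = 0.259).

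Of the 7 regulators 3 fell in G4D. Ppara, which encodes PPARα, was at 7.51 to 8.12 (median 7.72) in G4D TAC, against 8.60, 8.38, 8.29, 8.28 and 8.15 in G4D sham, and at 7.97 to 8.53 (median 8.01) in wild-type TAC, against 8.43, 8.41, 8.2 and 8.24 in wild-type sham. The G4D groups were apart and the wild-type groups overlapped through wild-type TAC sample 5. The TAC change of Ppara was -0.62 ± 0.12 in G4D (adjusted p = 0.000634) and -0.22 ± 0.12 in wild type (adjusted p = 0.364). Its dimmer probe sets gave -0.50 and -0.66 in G4D, and -0.42 and -0.37 in wild type. Esrrg, the oestrogen-related receptor γ, was at 7.28 to 7.55 (median 7.46) in G4D TAC, against 7.92, 7.87, 7.98, 8.06 and 7.88 in G4D sham, and at 7.45 to 7.87 (median 7.60) in wild-type TAC, against 7.65, 7.78, 7.86 and 7.90 in wild-type sham. It fell in G4D, with groups apart, at -0.50 ± 0.08 (adjusted p = 0.000201) and stood at -0.14 ± 0.09 in wild type (adjusted p = 0.436). Esrra, the oestrogen-related receptor α, was at 7.59 to 7.82 (median 7.75) in G4D TAC, against 7.93, 8.03, 8.27, 8.10 and 7.93 in G4D sham, and at 7.57 to 8.04 (median 7.93) in wild-type TAC, against 8.33, 8.07, 8.28 and 8.18 in wild-type sham. TAC and sham were apart in both genotypes, and it fell at -0.31 ± 0.09 in G4D (adjusted p = 0.0135) and -0.32 ± 0.09 in wild type (adjusted p = 0.0381). A dimmer probe set gave 0.07 in G4D and -0.10 in wild type.

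The other 4 regulators did not pass in either genotype. Ppargc1a, which encodes the coactivator PGC-1α, was at 7.40 to 8.75 (median 7.93) in G4D TAC, against 8.85, 8.84, 8.52, 9.14 and 7.98 in G4D sham, and at 7.82 to 9.67 (median 8.44) in wild-type TAC, against 9.08, 7.65, 9.20 and 8.21 in wild-type sham. TAC and sham overlapped in both genotypes, and the TAC change was -0.72 ± 0.33 in G4D (adjusted p = 0.119) and -0.09 ± 0.35 in wild type (adjusted p = 0.924). Its 4 other probe sets gave -0.90 to -0.77 in G4D, and their mean with the brightest passed the test at -0.82 (adjusted p = 0.000812). Ppard, the δ receptor, was at 5.39 to 6.14 (median 5.58) in G4D TAC, against 5.85, 6.16, 5.61, 6.43 and 5.64 in G4D sham, a change of -0.24 ± 0.16 in G4D (adjusted p = 0.300) and -0.08 ± 0.17 in wild type (adjusted p = 0.839). Rxra, the shared partner receptor, was at 6.35 to 6.95 (median 6.64) in G4D TAC, against 6.55, 7.23, 6.21, 7.05 and 6.72 in G4D sham, a change of -0.12 ± 0.16 in G4D (adjusted p = 0.657) and -0.23 ± 0.18 in wild type (adjusted p = 0.517). Ppargc1b, the related coactivator PGC-1β, was at 8.40 to 9.01 (median 8.69) in G4D TAC, against 8.75, 8.39, 8.42, 8.48 and 8.78 in G4D sham, a change of 0.16 ± 0.10 in G4D (adjusted p = 0.282) and -0.12 ± 0.11 in wild type (adjusted p = 0.608).

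**Figure D3:**
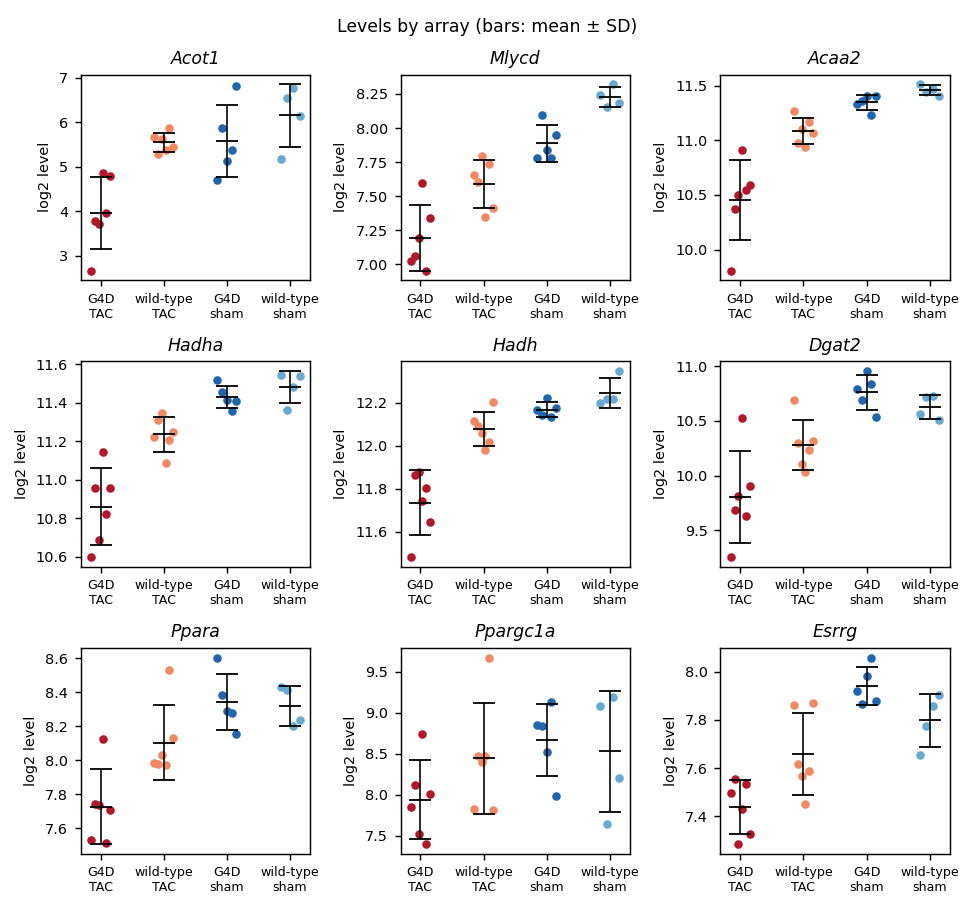
Log2 level of 9 genes in every sample, with 1 panel a gene and the groups across in the order G4D TAC, wild-type TAC, G4D sham and wild-type sham; points are samples and bars the mean ± SD. In Acaa2 and Hadh all 6 G4D TAC samples lie below all 6 wild-type TAC samples, and in Ppargc1a the groups overlap throughout.

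After TAC, the comparison of the genotypes asked whether loaded G4D hearts held less of this program than loaded wild-type hearts. All 36 members were lower in G4D TAC than in wild-type TAC by their means, with a median log2 fold change of -0.25, beside -0.01 over all genes. The test called 7 lower (19.4%) and 0 higher, where 1.26% of all tested genes were called lower and 2.10% higher: Acaa2, Hadh, Hadha, Decr1, Mlycd, Acot1 and Ucp3. Of the 7, 4 belong to β-oxidation, and in 3 of them (Acaa2, Hadh and Acot1) every G4D TAC sample was below every wild-type TAC sample, as were 0.836% of all genes.

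Acaa2 lay at 9.81 to 10.91 (median 10.52) in G4D TAC and 10.94 to 11.26 (median 11.08) in wild-type TAC, a change of -0.63 ± 0.12 (adjusted p = 0.00410). Hadh lay at 11.48 to 11.88 (median 11.77) in G4D TAC and 11.98 to 12.20 (median 12.08) in wild-type TAC, a change of -0.34 ± 0.07 (adjusted p = 0.00706). In both genes the 6 loaded G4D samples sat wholly under the 6 loaded wild-type samples. Hadha was at 10.60 to 11.14 (median 10.89) in G4D TAC and 11.09 to 11.35 (median 11.24) in wild-type TAC, with -0.38 ± 0.08 between them (adjusted p = 0.0112). Decr1 was at 10.22 to 10.98 (median 10.71) in G4D TAC and 10.98 to 11.11 (median 11.02) in wild-type TAC, with -0.36 ± 0.10 between them (adjusted p = 0.0434). In both, G4D TAC sample 4 was the highest of its group and the only one to reach the lower end of the wild-type range. Mlycd was at 6.95 to 7.60 (median 7.13) in G4D TAC and 7.35 to 7.79 (median 7.63) in wild-type TAC, which overlap, with -0.40 ± 0.10 between them (adjusted p = 0.0359). With each of the 21 arrays left out in turn, the Decr1 call held in 5 fits and the Mlycd call in 13. The Ucp3 call given below held in 16.

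Acot1 lay at 2.67 to 4.85 (median 3.88) in G4D TAC and 5.30 to 5.88 (median 5.53) in wild-type TAC, with no overlap, and differed by -1.58 ± 0.35 (adjusted p = 0.0139); since most of its G4D TAC levels were below the filter level, the call and its size carry the limit given above. Ucp3 lay at 4.74 to 6.30 (median 5.89) in G4D TAC and 6.19 to 7.10 (median 6.71) in wild-type TAC, an overlap of the nearest samples, and differed by -1.03 ± 0.25 (adjusted p = 0.0251). On their brightest probe sets the regulators had smaller or more uncertain differences, none past the test: Ppara -0.38 ± 0.11 (adjusted p = 0.0685), Ppargc1a -0.50 ± 0.31 (adjusted p = 0.558), Esrrg -0.22 ± 0.08 (adjusted p = 0.167) and Ppard -0.24 ± 0.15 (adjusted p = 0.557). Dimmer probe sets gave -0.69 to -0.59 for Ppargc1a, and -0.20 and -0.44 for Ppara. With the mean of its probe sets Ppargc1a was called lower, at -0.61 (limma adjusted p = 0.0278). Under that setting Slc27a1 was called too, at -0.52 (limma adjusted p = 0.0369), and the Ucp3 call was lost. Rxra stood at -0.10 ± 0.16, Esrra at -0.15 ± 0.08 and Ppargc1b at -0.05 ± 0.10 in the same comparison. On the brightest probe sets Fabp3 and Cd36 differed least of the 36, at -0.01 ± 0.07 and -0.04 ± 0.09. Dimmer probe sets gave -0.28 for Fabp3, and -0.08 and -0.31 for Cd36.

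G4D TAC sample 4 stood apart in these genes. It was the highest of its group in 23 of 36 members, and its members lay at the median 0.23 below their wild-type sham means, against 0.47 to 0.67 below in the other 5. Its fibroblast markers summed to 13.49, the lowest of G4D TAC, and its deposited median of 4.37 was the lowest of its group. Without it 16 members were called lower, adding Slc27a1, Cpt2, Acacb, Acadvl, Acads, Ech1, Etfb, Dgat2 and Ppara. Without wild-type TAC sample 1, 3 or 5, or G4D TAC sample 1 or 3, 4 were called. In the values as deposited and after median centring 1 was called, Acot1. Some genes of the marker lists differed too. Of 9 fibroblast markers 8 were above 0 and 1 was called higher, Mfap4 at 1.29 ± 0.32 (adjusted p = 0.0297), with sums of 13.49 to 14.44 in G4D TAC and 13.26 to 14.14 in wild-type TAC. Of 4 smooth muscle markers 1 was called higher, Acta2 at 0.81 ± 0.20 (adjusted p = 0.0251), with sums of 10.95 to 11.39 in G4D TAC and 10.58 to 10.88 in wild-type TAC. The gap in these sums follows Acta2. In the same order of groups Myh11 averaged 6.15 and 6.31, Smtn 8.54 and 8.78, and Tagln 7.40 and 7.38. Of 4 skeletal muscle markers 0 were called, with sums of 13.45 to 13.69 in G4D TAC and 13.37 to 13.44 in wild-type TAC. Of 4 atrial markers 1 was called lower, Kcnj3 at -1.07 ± 0.24 (adjusted p = 0.0136), with a median sum of 12.63 in G4D TAC and 11.98 in wild-type TAC. The atrial sum is mostly Nppa, which averaged 12.40 in G4D TAC and 11.85 in wild-type TAC. Of 12 cardiomyocyte markers 0 were called, and the part of these cells in the differences was not tested.

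**Figure D4:**
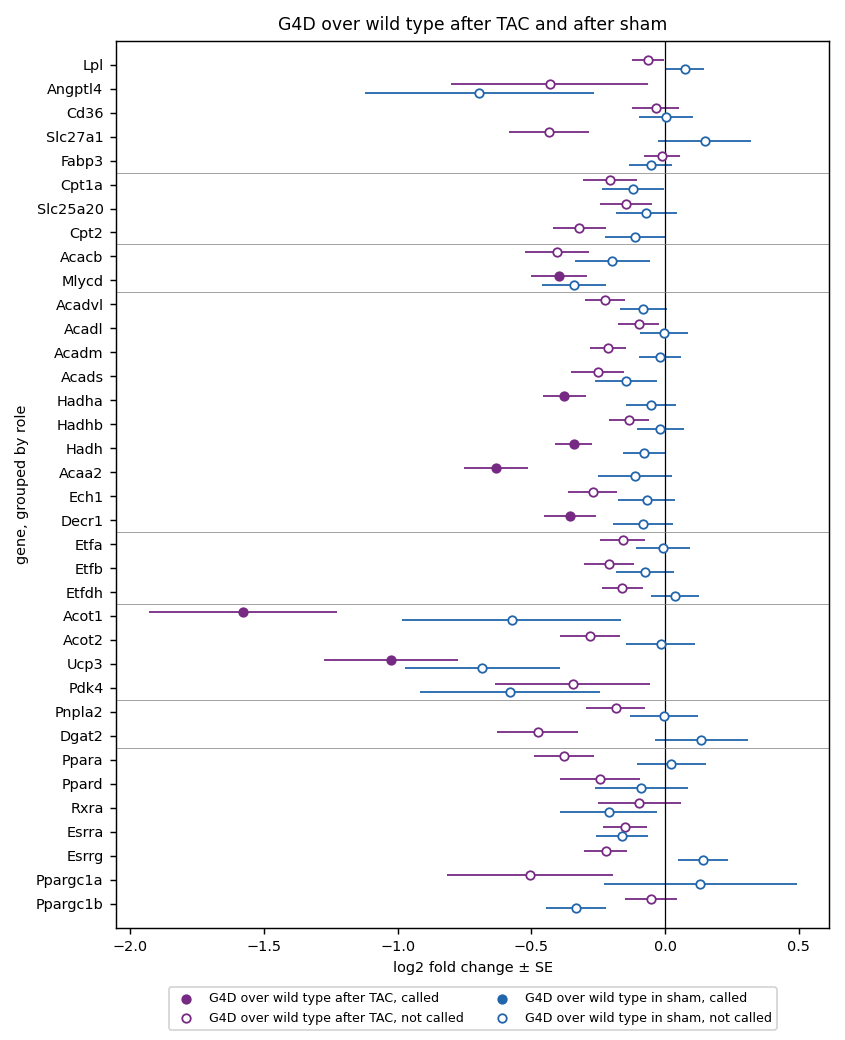
Difference between G4D and wild-type means on the log2 scale (across, with standard error bars) for each of the 36 genes, after TAC (purple) and after sham (blue); filled points passed the limma test and open points did not. After TAC all 36 lie below 0 and 7 passed; after sham 28 lie below 0 and 0 passed.

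In sham hearts 0 of the 36 members were called between the genotypes, where limma called 0.0527% of all tested genes, and 3 (8.33%) had an unadjusted p under 0.05, as did 8.09% of all tested genes. The median was -0.07, beside -0.01 over all genes, and 28 of 36 were below 0. The 3 were Mlycd at -0.34 ± 0.12 (adjusted p = 0.433), Ppargc1b at -0.33 ± 0.11 (adjusted p = 0.396) and Ucp3 at -0.68 ± 0.29 (adjusted p = 0.536). Mlycd was at 7.78, 8.09, 7.84, 7.78 and 7.95 in G4D sham, against 8.24, 8.16, 8.32 and 8.19 in wild-type sham, and was the only member in which every G4D sham sample was below every wild-type sham sample, as were 1.66% of all genes. Among the other regulators Ppara was at 0.02 ± 0.13, Ppard at -0.09 ± 0.17, Rxra at -0.21 ± 0.18, Esrra at -0.16 ± 0.10, Esrrg at 0.14 ± 0.09 and Ppargc1a at 0.13 ± 0.36. These values do not show that the genotypes were alike at baseline: the 95% interval of Ppargc1a ran over -0.62 to 0.88.

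Whether the falls differed between genotypes was tested by subtracting the wild-type change from the G4D change (the interaction). It called 0 of 36 members, where 0.0151% of all tested genes were called, and 7 (19.4%) had an unadjusted p under 0.05 with a value below 0, as did 3.80% of all tested genes (8.36% in either direction). These 7 were Esrrg, Acaa2, Dgat2, Hadha, Slc27a1, Hadh and Ppara. Of the 36, 30 had a value below 0, with a median of -0.17, beside 0.01 over all genes. Acaa2 was at -0.52 ± 0.18 (adjusted p = 0.392), Dgat2 at -0.61 ± 0.23 (adjusted p = 0.432) and Ppara at -0.40 ± 0.17 (adjusted p = 0.516). On dimmer probe sets of Ppara the wild-type falls, -0.42 and -0.37, were nearer to those in G4D, -0.50 and -0.66. A larger fall in G4D hearts was thus not shown for any single member. The members' median was 0.33 in the values as deposited and 0.06 after median centring, above 0 in both, but -0.09 relative to all genes, whose own medians were 0.42 and 0.15. The comparisons of TAC with sham in G4D and of G4D with wild type after TAC share the 6 G4D TAC samples, so their values are not independent.

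Members differed in how much they varied within groups. The within-group SD had a median of 0.16 over the 36 members, beside 0.21 over all genes, but was 0.68 in Acot1, 0.68 in Angptl4, 0.60 in Ppargc1a, 0.55 in Pdk4 and 0.45 in Ucp3. These 5 were singled out after their values were seen. In G4D sham the same samples were at the ends for 4 of them. Sample 5 was highest and sample 1 lowest for Acot1 (6.81 and 4.71), Angptl4 (5.92 and 3.90), Pdk4 (11.70 and 9.66) and Ucp3 (7.43 and 6.27). Sample 5 also had the high sums of atrial and adipocyte markers given above, though not every adipocyte marker was high. The cause of this order was not tested. Ppargc1a ran the other way in sample 5, its lowest G4D sham value at 7.98. In wild-type TAC, sample 5 was highest for Acot1 (5.88), Angptl4 (7.35), Pdk4 (11.65) and Ppargc1a (9.67) but not for Ucp3, highest in sample 1 (7.10, against 7.01 in sample 5).

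Other genes, in lists that do not include the members, showed where the falls went beyond them. Over all tested genes 9.32% fell and 13.2% rose in G4D after TAC, and 2.16% fell and 5.19% rose in wild type. Between the genotypes after TAC 1.26% were lower in G4D and 2.10% higher. Of 19 tested genes of mitochondrial acyl-CoA oxidation and carnitine, 17 fell in G4D after TAC (89.5%) and 6 in wild type (31.6%). In the comparison of genotypes after TAC 2 were lower in G4D (10.5%). Of these 19, 7 act in amino acid and propionate breakdown (Acad8, Acadsb, Ivd, Mcee, Mmut, Pcca and Pccb), a division made after the values were seen. In G4D 7 of these 7 fell, as did 10 of the other 12. The largest in G4D were Ivd of leucine breakdown at -0.72 ± 0.14 (adjusted p = 0.000651), the carnitine transporter Slc22a5 at -0.67 ± 0.09 (adjusted p = 1.73e-05) and the enoyl-CoA isomerase Eci1 at -0.65 ± 0.10 (adjusted p = 0.000136). Eci1 and Eci2 were also the 2 lower in G4D after TAC, at -0.47 ± 0.10 (adjusted p = 0.00928) and -0.36 ± 0.08 (adjusted p = 0.0140). Of 11 peroxisomal genes 4 fell in G4D (36.4%), 3 in wild type (27.3%), and 1 was lower in G4D after TAC (9.09%). That 1 was Pex11a, a peroxisome division factor and PPARα target, at -0.55 ± 0.10 by TAC in G4D (adjusted p = 0.000479), -0.39 ± 0.11 in wild type (adjusted p = 0.0278) and -0.40 ± 0.10 between the genotypes after TAC (adjusted p = 0.0251).

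Some lipid storage genes also fell. Of 17 genes of lipid droplets, lipolysis and triglyceride synthesis 6 fell in G4D after TAC (35.3%) and 1 in wild type (5.88%). In the comparison of genotypes after TAC 3 were lower in G4D (17.6%). Over all tested genes these shares were 9.32%, 2.16% and 1.26%. Fitm1, which helps form lipid droplets in muscle, fell in G4D at -0.82 ± 0.15 (adjusted p = 0.000531) and was lower than wild type after TAC at -0.79 ± 0.14 (adjusted p = 0.00307). Lipe, the hormone-sensitive lipase, fell in G4D at -0.76 ± 0.13 (adjusted p = 0.000287). G0s2, which inhibits ATGL, was lower in G4D after TAC at -0.62 ± 0.15 (adjusted p = 0.0251).

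Uptake, synthesis and control lists moved both ways. Of 15 further uptake, activation and thioesterase genes, 3 rose and 3 fell in G4D, and 4 rose and 1 fell in wild type. Fabp5, a fatty acid-binding protein of endothelium and macrophages, rose in G4D at 0.78 ± 0.16 (adjusted p = 0.00138) and in wild type at 0.83 ± 0.17 (adjusted p = 0.00463), while Acss1, a mitochondrial acetyl-CoA synthetase, fell in both at -0.67 and -0.48. Acot9, a mitochondrial thioesterase, rose in G4D at 0.51 ± 0.08 (adjusted p = 0.000127) and was higher in G4D than wild type after TAC at 0.44 ± 0.08 (adjusted p = 0.00234), opposite in sign to Acot1. Of 11 synthesis and elongation genes 3 rose in G4D (27.3%), led by the elongase Elovl1 at 0.89 ± 0.13 (adjusted p = 4.17e-05), and 1 fell (9.09%). In wild type 1 rose and 1 fell (9.09% each).

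Of 22 further transcription factors and cofactors 5 fell and 2 rose in G4D (22.7% and 9.09%), where 9.32% of all tested genes fell and 13.2% rose. Klf15, a factor that promotes lipid use in heart muscle, fell at -1.20 ± 0.19 in G4D (adjusted p = 0.000119) and stood at -0.47 ± 0.20 in wild type (adjusted p = 0.190). Rxrg, a partner of the PPARs, fell in both, at -0.57 and -0.57 (adjusted p = 0.000771 and 0.00446), whereas its relative Rxra above passed in neither. Hif1a, the hypoxia factor, rose in G4D at 0.57 ± 0.14 (adjusted p = 0.00527). Of 12 genes of AMP-activated kinase and acetylation 3 fell and 1 rose in G4D (25.0% and 8.33%). The kinase's β subunits moved apart: Prkab1 fell at -0.59 ± 0.11 in G4D (adjusted p = 0.000393) and -0.49 ± 0.11 in wild type (adjusted p = 0.0110), and Prkab2 rose in G4D at 0.57 ± 0.11 (adjusted p = 0.00103). After TAC Prkab2 was higher in G4D than wild type by 0.77 ± 0.11 (adjusted p = 0.000370), with the groups apart, and Prkab1 was lower, at -0.41 ± 0.10 (adjusted p = 0.0268).

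**Figure D5:**
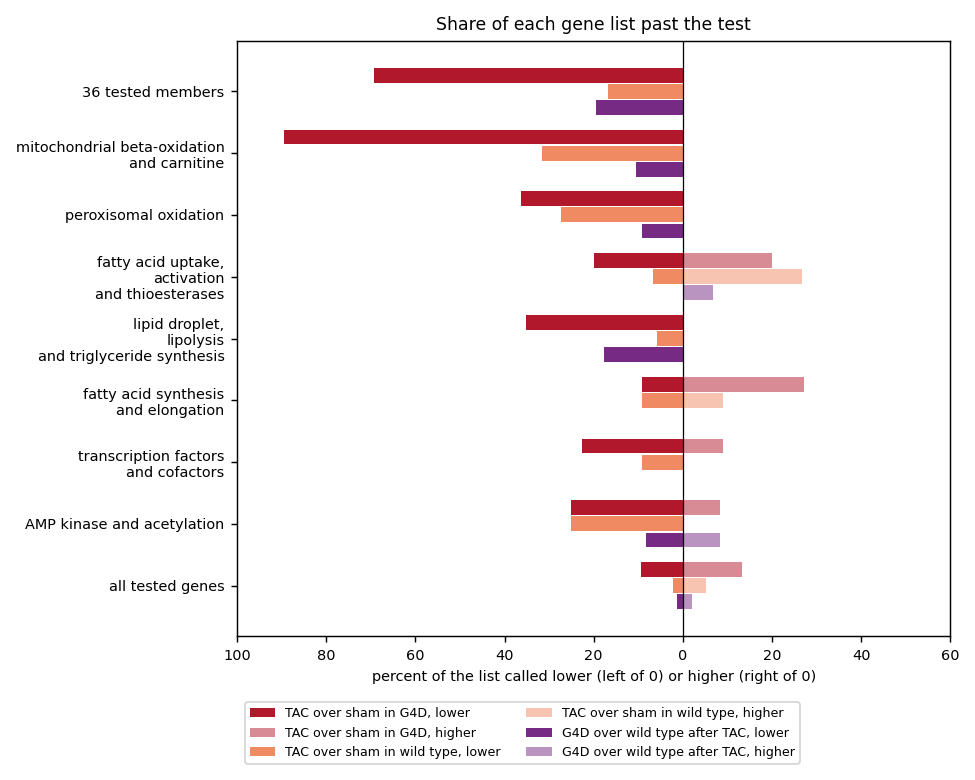
Percent of each gene list called lower (bars left of 0) or higher (paler bars right of 0) in 3 comparisons: TAC over sham in G4D (dark red), TAC over sham in wild type (orange) and G4D over wild type after TAC (purple). In G4D 69.4% of the 36 members and 89.5% of the further mitochondrial list were lower after TAC, beside 9.32% of all tested genes.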

How the data were processed

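RNA of 21 heart samples was measured on single-colour arrays with biotin label. The deposited values are 1 log2 value per probe set and array, which the authors made with PLIER per the submitters' processing notes; its version, background correction and normalization are not given in the sources used here, and that the scale is log2 follows from the values and the spike-in controls only. Because array medians differed, the 45037 non-control probe sets were quantile normalized. Probe sets with exactly 1 symbol in the platform annotation (34945) and a mean over all arrays at or above the 40th percentile (4.35) were kept, and the brightest stood for its gene (Python 3.11.15, pandas 2.3.3 and matplotlib 3.10.9 made summaries and figures). Groups came from the sample titles. lmFit and eBayes of limma 3.58.1 (R 4.3.3) fitted the 4 group means to all 21 arrays without covariates (17 residual degrees of freedom), two-sided, with Benjamini-Hochberg adjustment over 13279 genes; every adjusted p is from limma. The number of arrays limits the precision. The fit was tested on simulated data.

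All members could be named, with full values for called members and for the 7 regulators, and of each other list up to 4 called genes with the largest change, or up to 2 as values; Gata4 was always named. The members, the lists and these rules were chosen with earlier results of these data known. Whether replicate numbers in the titles pair samples is not known. Of 28 same-numbered pairs 9 had correlated deviations over 0.1, with a range of -0.36 to 0.42. These were 3 of 6 pairs for number 1, 3 of 6 for number 3, 1 of 6 for number 4 and 2 of 3 for number 5. Numbers 2 and 6 had 0. Such a count cannot settle whether samples were paired. Alternatives covered normalization, filter, probe-set choice, spread estimates, block, control-probe covariates and leaving out each array; cyclic loess, the 75th-percentile centring and the Gapdh covariate were chosen after seeing the data.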

Additional observations from a re-analysis of the deposited data

Results flagged for a closer look

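In 12 of 148 gene and group combinations checked, 1 sample lay farther from the rest of its group than Dixon's 95% criterion allows; chance gives about 1 in 20. G4D TAC sample 4 was high for Acacb (9.25, the others 8.41 to 8.63), Pnpla2 (9.93, the others 9.28 to 9.43) and Ppara (8.12, the others 7.51 to 7.74). Wild-type TAC sample 5 was high for Ppara (8.53, the others 7.97 to 8.13) and Ppargc1a (9.67, the others 7.82 to 8.48). Among the other wild-type TAC samples, sample 4 was low for Cpt2 (10.02, the others 10.18 to 10.24) and sample 6 high for Ppargc1b (8.95, the others 8.68 to 8.77).

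In G4D sham, sample 5 was high for Cpt1a (7.38, the others 6.88 to 6.91), sample 4 low for Etfb (11.44, the others 11.70 to 11.79) and sample 2 high for Pnpla2 (10.31, the others 10.001 to 10.07). In wild-type sham, sample 4 was high for Hadh (12.35, the others 12.20 to 12.22) and sample 1 for Fabp3 (12.96, the others all at 12.84, a tie that quantile ranks produce).

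Esrrg stood out because its genotype effect ran 1 way after TAC, -0.22 ± 0.08, and the other way in sham, 0.14 ± 0.09. The interaction was -0.36 ± 0.12 and missed the test after adjustment in limma (adjusted p = 0.363).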

How the results depend on the processing

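For TAC in G4D 25 members were called; leaving out 1 array gave 23 to 26 (medians -0.48 to -0.40), but the values as deposited gave 2 (median -0.092, with Slc25a20 at 0.11, Acadvl at 0.0009 and Esrra at 0.11, opposite in sign) and median centring 5 (median -0.30). For TAC in wild type 6 were called; the count was 0 as deposited (median -0.37), after median centring and with the actin covariate, 1 with the replicate block, 3 with 75th-percentile centring (median -0.31) and 10 with array weights. Leaving out 1 array gave 1 to 7 (medians -0.26 to -0.21): 1 when wild-type sham sample 1, wild-type sham sample 3 or wild-type TAC sample 4 was left out, and 3 on leaving out sham sample 2 or 4 or TAC sample 1 or 5 of wild type. After TAC, 7 were called; the count was 1 as deposited (median -0.099) and after median centring, 3 with only the groups compared and with 75th-percentile centring, 11 with a trend and robust prior, 16 with array weights, and 4 to 16 without 1 array (medians -0.29 to -0.22). In sham the median was -0.42 as deposited, -0.27 after median centring and -0.16 with 75th-percentile centring (-0.08 to -0.05 without 1 array); for the interaction it was 0.33, 0.061 and -0.071 (-0.23 to -0.14), and 0 members were called in any of these. All genes shifted by -0.28 as deposited in sham. The replicate block changed the calls of 1, 5 and 2 members (24, 1 and 5 remained in the 3 comparisons above), and whether the numbers pair the samples is not known. Acaa2, Hadha, Hadh and Acot1 after TAC, and Mlycd for TAC in wild type, passed without any 1 array. Most G4D TAC levels of Acot1 were below the filter level, so its limit given above holds here too. The causes of the changes in these counts were not tested.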

Other observations

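Members with several probe sets above the filter level gave 30 further readings in 20 genes. In the G4D TAC comparison 21 of the 30 were lower than the brightest probe set used and 9 were higher. The median difference over all 30 was -0.05. The widest gaps on the lower side were in Cd36 (-0.63 against -0.20), Decr1 (-0.85 against -0.49) and Hadhb (-0.56 against -0.25). Cpt1a went the other way, with 2 dimmer probe sets at 0.89 and 0.71 against -0.01 on the brightest. Counting probe sets below the filter level too, 16 of the 25 called members had others, 21 in all. Of these, 18 had the same sign, 12 with an unadjusted limma p under 0.05, and 0 had the opposite sign at that p. Values for the brightest probe set may thus understate or miss changes seen on dimmer ones, and which is closer to the transcript level was not tested.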
